A study of Homo sapiens with 55 samples.

Results

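SCL60 is a derivative of the human embryonic kidney line HEK293 that stably carries a rat GnRH receptor gene at a high level. The comparison described here is the response of these cells after 2 h of triptorelin, a synthetic GnRH agonist given at 100 nM, and in particular the genes that were lower than in control cells at that time. The 4 treated 2 h arrays were set against 4 control arrays of 0 h and 3 control arrays of 1 h, so 11 of the 55 arrays of the study were compared. The labels give the vehicle as a 20% propylene glycol solution. Both control times had equal weight. The transfected receptor is carried by treated and control SCL60 cells alike, and both were grown with G418 on Matrigel-coated plates. The study also holds treated SCL60 arrays of 0.5, 1, 8 and 24 h, controls of 8 and 24 h, and HEK293 cells without the transfected receptor. There is no 2 h control and no 2 h HEK293 array, so that triptorelin and 2 h of time in culture cannot be told apart in this comparison. No label says that replicates came from separate cultures, and p-values therefore measure the spread between these samples, which may be technical.

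The GnRH receptor is a G-protein-coupled receptor of pituitary gonadotropes that acts mainly through Gq, phospholipase C, calcium and protein kinase C, and from there through the MAP kinases. Signals of this kind switch on immediate early genes without new protein synthesis, and the early gene products then act on a later set of genes. A transcript can fall early only as fast as existing mRNA decays, so the genes seen to fall soon after a stimulus are often those with short-lived mRNA, among them many transcription factors and signalling regulators.

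The array (Illumina HumanHT-12) held 48803 probes, of which 28098 carried 1 gene symbol, 13 several and 20692 none. After the dim probes were left out and 1 probe was kept for each gene, 12793 features were tested, of which 10467 were named genes. The 11 arrays had median raw signals of 44 to 69, between 11766 and 14120 probes were detected on each (detection p under 0.01), and arrays of 1 group correlated at 0.974 or above. Probes for GNRHR, the human receptor gene, were detected on 0 of 55 arrays, and the rat sequence has no probe named for it, so the array does not report the transfected receptor. LHB and FSHB were detected on 0 of 55 arrays too. Of 9 HEK293 line markers on the array 5 were detected on all 11 arrays. Levels of all 9 were summed over their probes as normalized signal that was not logged. The sum was 8472 to 10426 in the treated 2 h arrays, 10881 to 11632 in the 0 h controls and 10672 to 10835 in the 1 h controls. It was lower in the treated arrays, no single marker was called, and its part in the results was not tested. Of 10 fibroblast markers 2 were detected on any of the 11 arrays, COL1A1 and PDGFRA, and 0 on all 11. COL1A2, COL3A1, DCN and LUM were among those never detected. Of 8 blood cell markers 2 were detected on any of the 11 arrays, CD68 on all 11 and CD14 on some. PTPRC, CD3E and HBB were among those never detected. The summed level of all 10 fibroblast markers was 421 to 464 in the treated 2 h arrays, 437 to 467 in the 0 h controls and 457 to 487 in the 1 h controls. The 8 blood cell markers summed to 518 to 609 in the treated 2 h arrays, 495 to 571 in the 0 h controls and 524 to 572 in the 1 h controls. For the 10 epithelial markers the sums were 4272 to 5325 in the treated 2 h arrays, 4444 to 5297 in the 0 h controls and 4806 to 5234 in the 1 h controls.

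Promoter sequences of 4 genes that the results return to are given first. CGA and CXCL8 rose at 2 h and DEPP1 and HES1 fell. CGA encodes the common alpha subunit of the gonadotropins, and its promoter holds 2 copies of the cAMP response element (CRE, TGACGTCA), shown in capitals. CXCL8, an attractant of neutrophils, has an AP-1 site (TGANTCA). DEPP1, a gene that FOXO factors induce, has a forkhead site (TGTTTAC, which lies on the other strand and so reads GTAAACA here). HES1, a repressor that Notch induces, has 1 site of the Notch effector RBPJ (GTGGGAA). The sequences are the 250 bases before the gene's start in RefSeq, build GRCh38.p14: chr6:87095107-87095356, minus strand for CGA, chr4:73740319-73740568, plus strand for CXCL8, chr10:44978810-44979059, minus strand for DEPP1 and chr3:194135898-194136147, plus strand for HES1.
CGA: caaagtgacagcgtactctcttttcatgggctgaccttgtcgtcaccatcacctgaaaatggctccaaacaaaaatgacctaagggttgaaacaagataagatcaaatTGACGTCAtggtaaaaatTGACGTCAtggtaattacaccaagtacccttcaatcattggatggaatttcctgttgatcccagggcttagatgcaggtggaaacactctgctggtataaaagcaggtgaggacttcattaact
CXCL8: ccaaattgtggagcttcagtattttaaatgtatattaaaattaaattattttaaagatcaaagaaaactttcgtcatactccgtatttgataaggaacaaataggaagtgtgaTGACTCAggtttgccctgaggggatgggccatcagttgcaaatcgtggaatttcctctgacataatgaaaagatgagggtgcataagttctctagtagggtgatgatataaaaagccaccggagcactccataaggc
DEPP1: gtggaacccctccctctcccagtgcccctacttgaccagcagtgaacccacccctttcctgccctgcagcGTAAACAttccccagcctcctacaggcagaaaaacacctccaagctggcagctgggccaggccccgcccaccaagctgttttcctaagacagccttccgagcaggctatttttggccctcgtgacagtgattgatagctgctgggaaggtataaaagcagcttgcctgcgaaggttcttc
HES1: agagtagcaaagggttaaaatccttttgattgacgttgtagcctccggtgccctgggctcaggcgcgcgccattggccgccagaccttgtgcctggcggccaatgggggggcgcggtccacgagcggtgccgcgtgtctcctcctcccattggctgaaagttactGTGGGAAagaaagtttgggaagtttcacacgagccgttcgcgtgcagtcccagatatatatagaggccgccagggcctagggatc
The CREs of CGA start at -142 and -124 relative to the gene's start, the AP-1 site of CXCL8 at -137, the forkhead site of DEPP1 at -180 and the RBPJ site of HES1 at -85. Each match is a description of the letters and not a site shown to be used.

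At 2 h 447 features were called (limma, Benjamini-Hochberg adjusted p under 0.05), which is 3.49% of those tested. Of these 180 were lower in treated cells (1.41% of all features) and 267 were higher (2.09%). At an unadjusted p under 0.05, 1079 of the 12793 features were lower and 782 higher. Counts at that threshold in the lists below are to be read against these. The falls were shallow: 8 of 180 had a log2 difference of -1 or lower, against 83 of 267 rises at 1 or higher. These differences include undetected arrays, for which the fold is only a bound. Among named genes the median log2 difference was -0.60 for the 164 that fell and 0.80 for the 237 that rose. In 130 of the 180 falls all 4 treated arrays lay below all 7 controls, and in 195 of the 267 rises all lay above; over all features 2.68% lay below and 2.50% above. All 180 falls and all 267 rises had the same sign within each of the 2 hybridisation batches. The median of the falls was -0.69 in batch 1 and -0.50 in batch 2, and the median of the rises 0.78 in both. The features were called on these same arrays, so the lack of overlap and the shared sign follow largely from that choice. They are no separate support. The count of falls depended on single arrays more than that of rises. It was 74 without treated replicate 4 and 96 without 1 h control replicate 4, and the total of both directions was then 285 and 295. Without treated replicate 1 the total was 293 and the rises numbered 170.

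**Figure D1:**
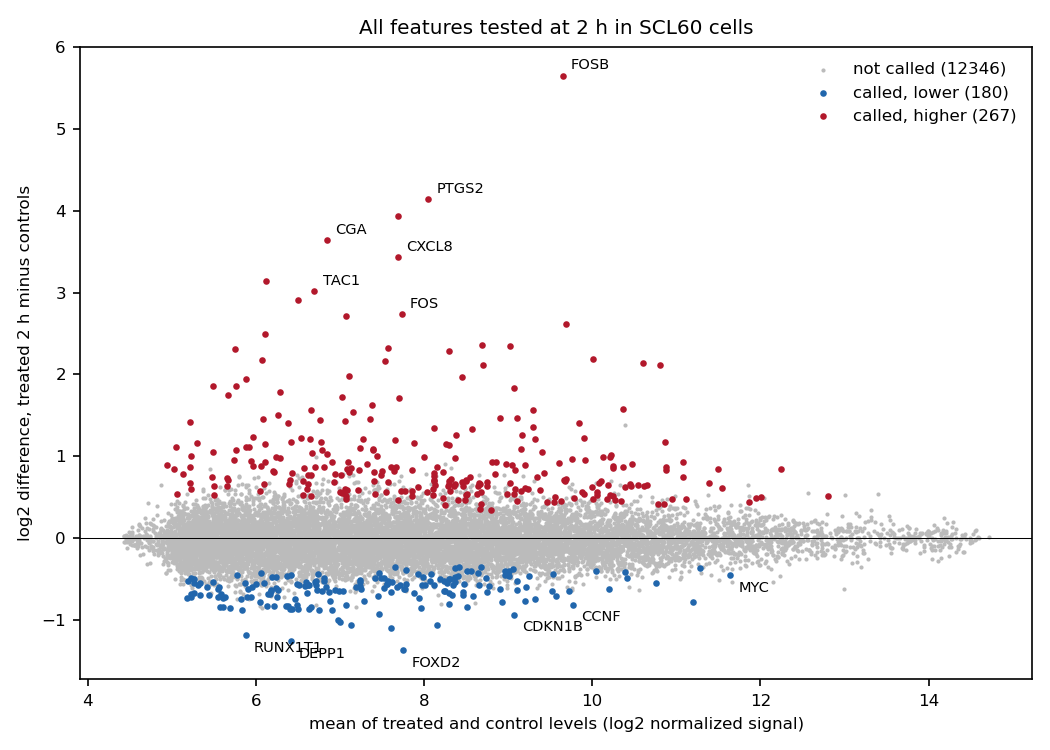
Each point is 1 of the 12793 features tested at 2 h; the horizontal axis is the mean of the treated and control levels (log2 normalized signal) and the vertical axis the log2 difference, treated 2 h minus controls. The 180 called falls (blue) lie in a narrow band that ends at FOXD2 (-1.37), while the 267 called rises (red) reach 5.65 at FOSB.

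Set against the same controls, triptorelin called 28 features at 0.5 h (0.219% of all) and 117 at 1 h (0.915%). At 0.5 h 0 of the 28 had fallen (limma; 50 features were lower at an unadjusted p under 0.05). At 1 h 116 features had risen (0.907%) and 1 had fallen (0.00782%), ZKSCAN4, a zinc finger gene at -0.61 on the log2 scale (adjusted p = 0.0104), which at 2 h was at -0.22 and did not pass (adjusted p = 0.505). The 3 comparisons share their control arrays. Called directly against the treated 1 h arrays, 128 features differed at 2 h (1.00%), 73 of them lower (0.571%) and 55 higher (0.430%). Of the 180 falls 43 were also called lower than treated 1 h.

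Forkhead and developmental transcription factors led the falls. FOXD2, a forkhead gene of the developing kidney and face, fell furthest. Its level was 6.52, 6.77, 7.27 and 7.71 in the treated 2 h arrays, against 8.15, 8.44, 8.48 and 8.48 in the 0 h controls and 8.07, 8.53 and 8.88 in the 1 h controls (log2 normalized signal, each group from lowest to highest). No treated array reached the lowest control, and the log2 difference was -1.37 ± 0.18 (SE; adjusted p = 1.14e-07), a 2.59-fold fall. FOXF2, a forkhead gene of mesenchyme, had 7.42, 7.48, 7.70 and 7.89 in the treated 2 h arrays, against 8.37, 8.64, 8.82 and 8.87 in the 0 h controls and 8.49, 8.79 and 8.80 in the 1 h controls. All 4 treated arrays were again lowest, with a log2 difference of -1.06 ± 0.21 (adjusted p = 0.000859). FOXK1, which acts in metabolism and autophagy, fell by 0.75 on the log2 scale (adjusted p = 0.0245), and FOXD1, a gene of kidney stroma, fell by 0.40 (adjusted p = 0.0273). Of 21 forkhead genes tested 4 fell and 0 rose by limma. At an unadjusted p under 0.05, 9 of the 21 were lower and 1 higher, against 1079 and 782 of all 12793 features. Their median was -0.24 against -0.03 over all features, and the share that fell was 19% against 1.41%. The calls of FOXK1 and FOXD1 were each lost in 7 of 28 alternative settings.

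HOXC8, a homeobox gene that sets position along the trunk, had 5.78, 6.78, 6.82 and 7.01 in the treated 2 h arrays, against 7.35, 7.53, 7.97 and 8.05 in the 0 h controls and 7.46, 7.58 and 7.71 in the 1 h controls. Treated arrays and controls did not overlap, and the log2 difference was -1.06 ± 0.20 (adjusted p = 0.000438). Its neighbour in the HOXC cluster, HOXC6, averaged 8.82 ± 0.29 in the treated 2 h arrays, 9.64 ± 0.11 in the 0 h controls and 9.54 ± 0.14 in the 1 h controls (SD, n = 4, 4 and 3), a fall of 0.77 on the log2 scale (adjusted p = 3.35e-05). RUNX1T1, a transcriptional corepressor, had 4.71, 5.07, 5.58 and 5.78 in the treated 2 h arrays, against 6.27, 6.50, 6.51 and 6.60 in the 0 h controls and 6.20, 6.60 and 6.61 in the 1 h controls. It was detected on 2 of the 4 treated arrays and on all 7 controls, and the log2 difference was -1.18 (adjusted p = 6.11e-05). ZIC2, a zinc finger factor of the early forebrain, averaged 10.81 ± 0.19 in the treated 2 h arrays, 11.58 ± 0.10 in the 0 h controls and 11.61 ± 0.15 in the 1 h controls and fell by 0.78 (adjusted p = 0.00164). Of 43 genes in the list of homeobox, SOX, T-box and other developmental factors 7 fell and 0 rose (14 were lower and 2 higher at an unadjusted p under 0.05), with a median of -0.27. The other 3 that fell were SOX13, POU3F2 and MEIS1, at -0.63, -0.63 and -0.54, named after their values were seen. The share of that list that fell was 16.3%, against 1.41% of all features.

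Of the transcription factors outside that list, DLX5, NKX3-2, SP8 and CEBPA stood among the 20 largest falls, while OLIG2, NKX2-5 and ISL2, named after their values were seen, rose by 1.07, 0.71 and 0.59 (adjusted p = 2.68e-06, 0.0047 and 0.023). DLX5, a homeobox gene of bone and of the craniofacial skeleton, had 6.33, 6.47, 6.49 and 6.66 in the treated 2 h arrays, against 7.30, 7.52, 7.71 and 7.84 in the 0 h controls and 7.30, 7.50 and 7.56 in the 1 h controls. Its arrays were tight and apart, with a log2 difference of -1.03 ± 0.15 (adjusted p = 4.53e-06). NKX3-2, a homeobox repressor in cartilage, fell by 0.88 (adjusted p = 2.35e-06) and averaged 6.31 ± 0.21 in the treated 2 h arrays, 7.32 ± 0.25 in the 0 h controls and 7.05 ± 0.27 in the 1 h controls. SP8, a limb and brain patterning factor, was detected on 1 of 4 treated arrays and on all 7 controls and differed by -0.88 (adjusted p = 0.000128). Its other probe, dimmer, differed by -0.13 and did not pass. CEBPA, a factor that couples differentiation to cell cycle exit, had 6.23, 6.30, 6.34 and 7.02 in the treated 2 h arrays, against 7.16, 7.21, 7.28 and 7.42 in the 0 h controls and 7.32, 7.36 and 7.60 in the 1 h controls. Treated replicate 1, at 7.02, stood apart from the other 3 treated arrays but still below every control, and the log2 difference was -0.88 ± 0.20 (adjusted p = 0.00385).

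**Figure D2:**
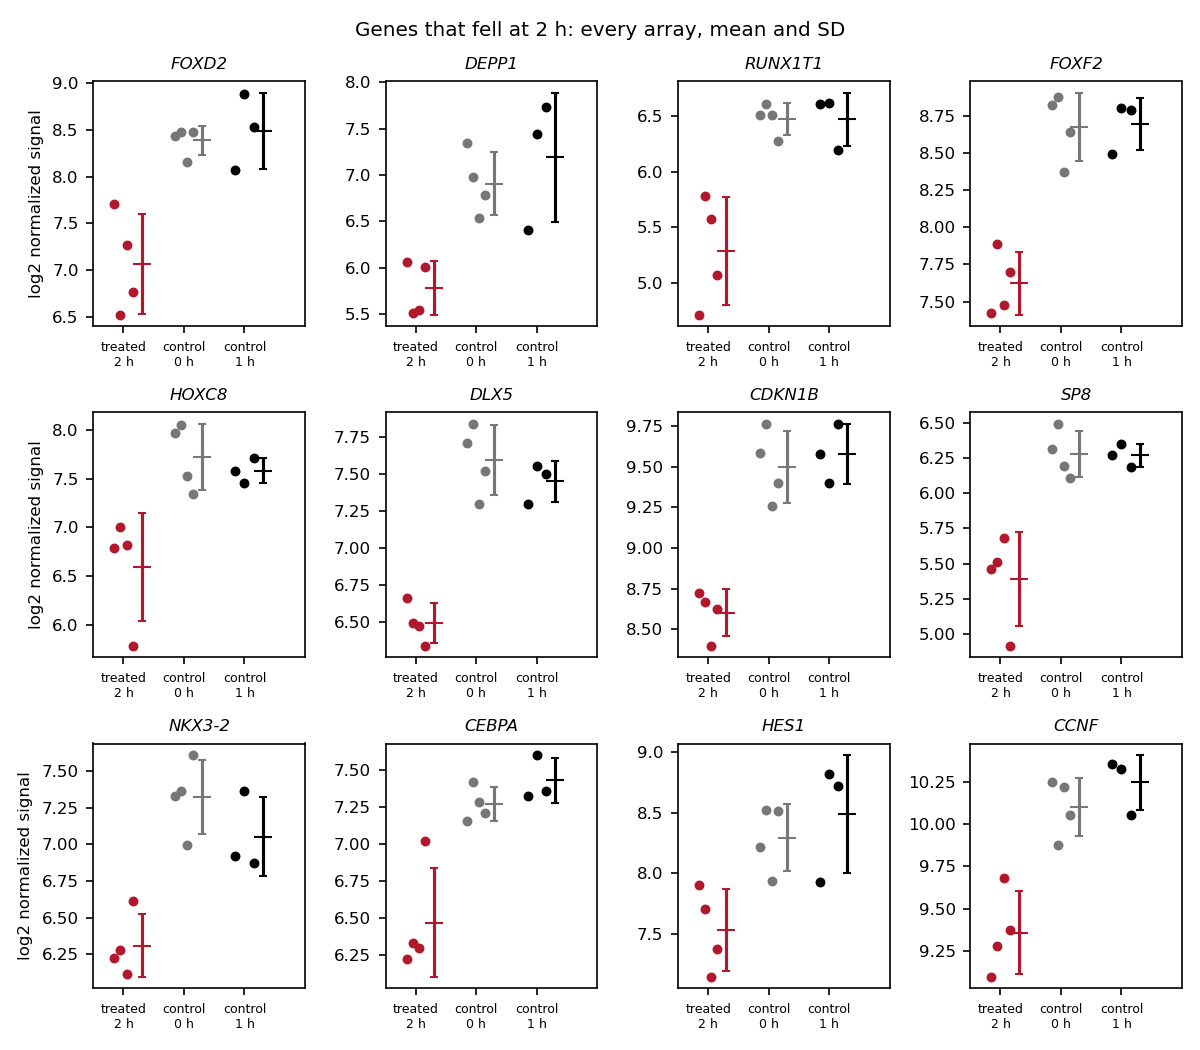
Level (log2 normalized signal, vertical axis, a separate scale for each gene) of 12 genes that fell at 2 h in every array of the treated 2 h group (red, n = 4), the 0 h controls (grey, n = 4) and the 1 h controls (black, n = 3); the cross-bar and whiskers are the mean and SD. In each panel all 4 treated arrays lie below all 7 controls.

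Of 29 genes that FOXO factors are known to induce 4 fell and 3 rose, with a median of -0.09, and the falls included genes of growth restraint. The shares were 13.8% and 10.3%, against 1.41% and 2.09% of all features. FOXO factors are held out of the nucleus when AKT is active, and they drive genes of cell cycle arrest and stress resistance. CDKN1B, which encodes the cyclin-dependent kinase inhibitor p27, had 8.40, 8.63, 8.67 and 8.72 in the treated 2 h arrays, against 9.26, 9.40, 9.58 and 9.76 in the 0 h controls and 9.40, 9.58 and 9.76 in the 1 h controls. The groups did not overlap and the log2 difference was -0.94 ± 0.12 (adjusted p = 1.92e-07), a 1.91-fold fall. A second, dimmer CDKN1B probe differed by -0.46 and did not pass (adjusted p = 0.233 over all probes). DEPP1, an autophagy-related protein whose promoter is shown above with its forkhead site, had 5.51, 5.55, 6.01 and 6.06 in the treated 2 h arrays, against 6.53, 6.78, 6.97 and 7.35 in the 0 h controls and 6.40, 7.44 and 7.73 in the 1 h controls. It was detected on 2 of 4 treated arrays and on all 7 controls, the groups did not overlap, and the log2 difference was -1.27 ± 0.27 (adjusted p = 0.00156). SESN1, a sestrin that restrains mTORC1, averaged 9.21 ± 0.38 in the treated 2 h arrays, 9.97 ± 0.23 in the 0 h controls and 9.87 ± 0.16 in the 1 h controls and fell by 0.71 (adjusted p = 0.00275), though its groups overlapped. ERBB3, a receptor of neuregulins, fell by 0.83 (adjusted p = 0.0316), a call lost in 12 of 28 alternative settings. The 3 that rose were GABARAPL1, an autophagosome protein, at 0.98 (adjusted p = 3.44e-09), TSC22D3, a glucocorticoid-induced gene, at 0.93 (adjusted p = 0.0314), a call also lost in 12 of 28, and KLF9 at 0.65 (adjusted p = 0.00775). Of 21 genes that restrain PI3K, AKT or mTOR 1 fell, SESN1 again, and 0 rose by limma (3 lower and 1 higher at an unadjusted p under 0.05). That 1 fall is 4.76% of the list, against 1.41% of all features.

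In the list of Notch, Wnt and Hedgehog genes 7 of 37 fell and 2 rose, with a median of -0.24. The shares were 18.9% and 5.41%, against 1.41% and 2.09% of all features. HES1, the Notch-induced repressor whose promoter is shown above, had 7.15, 7.38, 7.71 and 7.91 in the treated 2 h arrays, against 7.94, 8.22, 8.51 and 8.52 in the 0 h controls and 7.93, 8.72 and 8.82 in the 1 h controls. Every treated array was below every control, narrowly so for the lowest control, and the log2 difference was -0.86 ± 0.21 (adjusted p = 0.0108). Its call was lost in 3 of 28 alternative settings. FZD2, FZD8 and FZD4 encode Wnt receptors of the Frizzled family. FZD2 fell by 0.71 (adjusted p = 0.0173), FZD8 by 0.67 (adjusted p = 0.00964) and FZD4 by 0.65 (adjusted p = 0.0042) on the log2 scale. The FZD2 call was lost in 8 of 28 alternative settings, that of FZD8 in 3 and that of FZD4 in 1. In contrast FZD7 rose by 0.70 (adjusted p = 0.000924), and DKK1, a secreted Wnt antagonist, rose (adjusted p = 6.87e-08). DKK1 was detected on all 4 treated arrays, on 0 of 4 controls of 0 h and on 1 of 3 of 1 h, and was at least 1.81-fold higher in treated cells. The remaining 3 falls were the Notch ligands JAG2 at -0.63 and DLL1 at -0.46 (detected on 1 of 4 treated arrays) and the Notch target HEY1 at -0.37, named after their values were seen. In the list of the TGF-beta and BMP pathway 1 of 25 fell by limma, 4% against 1.41% of all features. None rose by limma, with 6 lower and 2 higher at an unadjusted p under 0.05. The fall was SMAD7, the inhibitor of that pathway, at -1.01 ± 0.21 (adjusted p = 0.00125). Its treated arrays had 6.06, 6.20, 6.66 and 6.95, against 6.95, 7.28, 7.34 and 7.51 in the 0 h controls and 7.61, 7.65 and 7.81 in the 1 h controls, so that the highest treated array met the lowest control. A dimmer SMAD7 probe differed by -0.27 and did not pass.

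The other large falls had varied roles. ORAI1, the pore of the store-operated calcium channel, fell by 0.83 (adjusted p = 0.0173), and RGMA, a co-receptor of BMPs and ligand of neogenin, fell by 0.84 (adjusted p = 0.00488). CCNF, an F-box cyclin of the G2 phase, averaged 9.36 ± 0.25 in the treated 2 h arrays, 10.10 ± 0.17 in the 0 h controls and 10.25 ± 0.16 in the 1 h controls, a fall of 0.82 (adjusted p = 0.000343). SLF2, which recruits the SMC5/6 complex to damaged DNA, fell by 0.79 (adjusted p = 4.87e-05), DCP1B, a subunit of the mRNA decapping complex detected on 1 of 4 treated arrays, by 0.86 (adjusted p = 7.68e-05), and OTUB2, a deubiquitinase, by 0.83 (adjusted p = 0.000427). MTCL2, a microtubule-binding protein, fell by 0.87 (adjusted p = 0.0313) and TIGD2 by 0.82 (adjusted p = 0.000128). MAN1C1, a mannosidase of the Golgi, was not detected on any treated array and was detected on all 7 controls, where it was at least 1.27-fold higher (adjusted p = 0.000247). BMF, a pro-apoptotic BH3-only gene, was detected on 0 of 4 treated arrays and 6 of 7 controls (adjusted p = 0.0198). SMAD7, MTCL2, OTUB2, ORAI1 and ERBB3 were each detected on 3 of 4 treated arrays and on all 7 controls. Of the 20 largest falls 15 kept their call in all 28 alternative settings, of which the 2 within hybridisation batches gave a sign but no test; CEBPA, MTCL2, HES1, RGMA and ORAI1 lost it in up to 7.

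Among the 180 falls were 3 genes that had been called higher than the same controls at 1 h. They were DEPP1, IER5 and MYC. MYC, the growth-promoting transcription factor, differed from the pooled controls by 0.70 at 1 h (adjusted p = 0.000942) and by -0.45 ± 0.14 at 2 h (adjusted p = 0.0483). At 2 h its arrays had 11.38, 11.39, 11.44 and 11.46 in the treated 2 h arrays, against 11.54, 11.70, 11.71 and 12.04 in the 0 h controls and 11.86, 11.95 and 12.17 in the 1 h controls. The 2 h call of MYC was lost in 17 of 28 alternative settings, whereas the difference between treated 2 h and treated 1 h was -1.15 (adjusted p = 1.02e-06). IER5, an immediate early gene, stood at 0.50 at 1 h (adjusted p = 0.0097) and at -0.58 ± 0.12 at 2 h (adjusted p = 0.000677), with no overlap between its groups at 2 h. DEPP1 stood at 1.04 at 1 h (adjusted p = 0.0341) before its low level at 2 h, and its treated 2 h arrays were below treated 1 h by 2.30 on the log2 scale (adjusted p = 6.32e-07). HES1 stood at 0.65 at 1 h, which did not pass (adjusted p = 0.327), and treated 2 h was below treated 1 h by 1.51 (adjusted p = 3.95e-05). FOXD2, DLX5 and CDKN1B differed from the controls by -0.24, 0.09 and 0.14 at 1 h, none of which passed, and were below treated 1 h by 1.13, 1.13 and 1.08 at 2 h (adjusted p = 0.000224, 2.5e-05 and 3.81e-07).

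**Figure D3:**
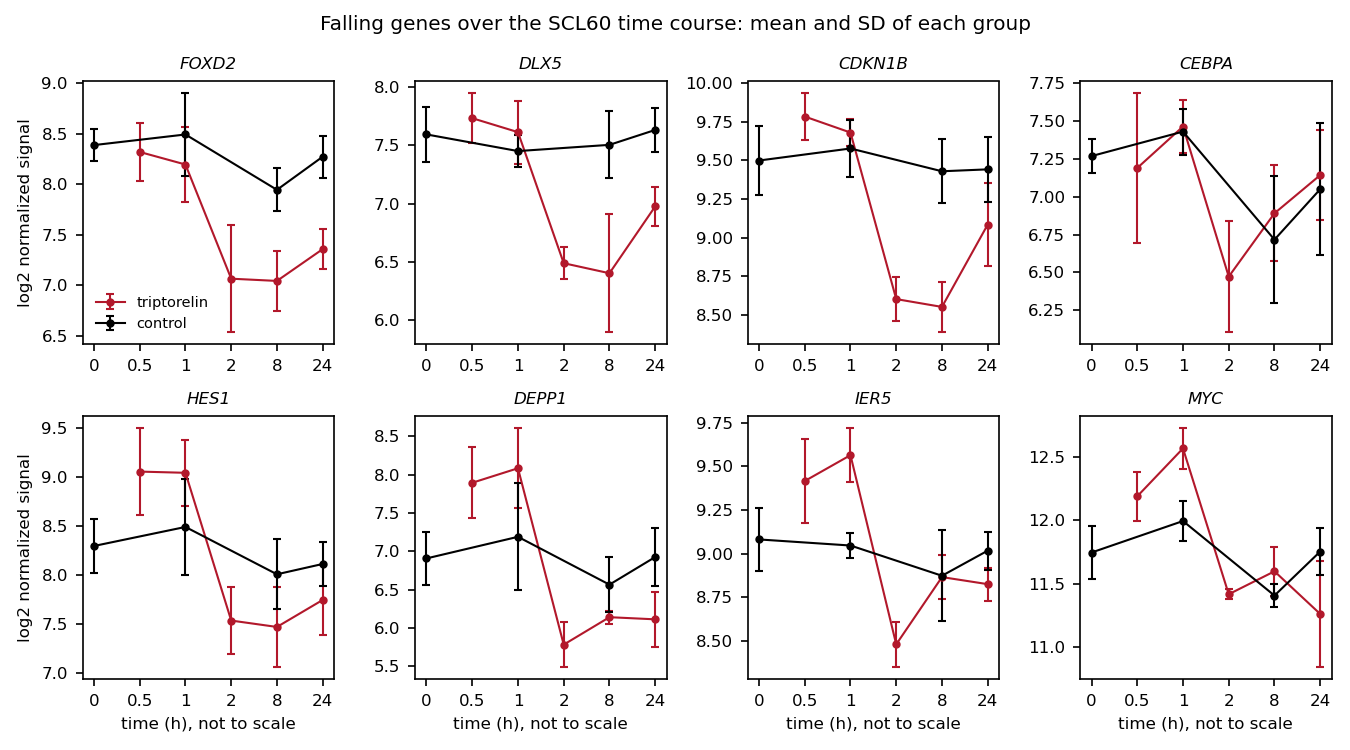
Mean and SD of the level (log2 normalized signal, vertical axis, a separate scale for each gene) over the SCL60 time course (hours, not to scale) in triptorelin-treated arrays (red) and controls (black; no control exists at 0.5 h or 2 h) for 8 genes that fell at 2 h. DEPP1, IER5 and MYC were called above the pooled controls at 1 h, while FOXD2, DLX5, CDKN1B, CEBPA and HES1 did not pass at that time; 0 of the 8 passed at 0.5 h (limma) and all 8 were called lower at 2 h.

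The later times have controls of their own. Of the 180 falls 57.8% were also called lower at 8 h, and they made up 6.01% of the 1730 falls of that time, when 13.5% of all features were called lower. At 24 h 61 of the 180 (33.9%) were called lower, or 8.37% of the 729 falls of that time (5.70% of all features), and 50 were lower at both. DLX5 stood at -1.10 at 8 h and -0.66 at 24 h (adjusted p = 2.86e-06 and 0.00835), and NKX3-2 at -1.03 and -0.81 (adjusted p = 2.4e-07 and 5.3e-05). CDKN1B remained lower at 8 h, at -0.88 (adjusted p = 2.27e-06), and at -0.36 at 24 h did not pass (adjusted p = 0.0881). HOXC8 stood at -0.86 at 8 h (adjusted p = 0.00399) and -0.16 at 24 h (adjusted p = 0.768). The change of the effect between 2 h and 8 h, tested directly, passed for 16 of the 180. The effect at 8 h was lower in 8 and higher in 8, and 3 of the latter were called higher than the 8 h controls. Over all features 5.38% passed, 2.60% with a lower and 2.77% with a higher effect at 8 h. FZD4 went deeper, with -1.91 at 8 h and -0.65 at 2 h (adjusted p of the difference = 0.00013). CEBPA was at 0.17 at 8 h and -0.88 at 2 h (adjusted p of the difference = 0.0254).

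The 8 h controls were also set against the pooled 0 h and 1 h controls, in which 1 feature was called (0.00782%), SRSF5, a splicing factor at -0.81, and it was not among the 180. FOXD2 differed by -0.50 in this way, RUNX1T1 by -0.60 and CEBPA by -0.63, and none of them passed (adjusted p = 0.37, 0.343 and 0.293). DLX5, HOXC8, NKX3-2 and SP8 differed by -0.02, 0.09, 0.01 and -0.01, and did not pass either. Of the 180 falls 136 were lower and 44 higher in the 8 h controls than in the pool, with a median of -0.15. Over all 12793 features 6930 were lower and the median was -0.02. The part of such drift in the falls was not tested. The pooled controls are those of the 2 h comparison, so these values are not independent of it. With controls of 1 h and 8 h, averaged, in place of the pool, which brackets 2 h, 143 features were lower, 57.2% of the 180 among them, and all 180 kept their sign. Against the 1 h controls alone 55 were lower, 54 of them among the 180, and against the 0 h controls alone 79 were lower, 77 of them among the 180. In HEK293 cells without the transfected receptor, 1 h of triptorelin against 1 h controls called 0 of 12793 features (limma; 153 were lower and 100 higher at an unadjusted p under 0.05). There the median of the 180 genes was -0.11, and that of all features -0.01.

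The rises at 2 h were led by immediate early and calcium- or cAMP-responsive genes. FOSB, a partner in the AP-1 dimer, had 12.01, 12.36, 12.53 and 12.99 in the treated 2 h arrays, against 5.83, 5.83, 5.98 and 6.18 in the 0 h controls and 6.79, 7.01 and 9.27 in the 1 h controls. The treated arrays lay above every control, the log2 difference was 5.65 ± 0.28 (adjusted p = 2.11e-21) and the fold 50.2. FOSB also differed between the control times, by 1.73 in the 1 h over the 0 h controls (adjusted p = 0.0212). PTGS2, the inducible cyclooxygenase, rose by 4.14 ± 0.25 (adjusted p = 1.78e-18), and the orphan nuclear receptor NR4A2 by 3.93 (adjusted p = 1.48e-17). NR4A1, of the same family, was detected on all 4 treated arrays and on 0 of 7 controls and was at least 4.29-fold higher in treated cells (adjusted p = 9.71e-17). EGR3, an early growth response factor, was likewise detected on 0 of 7 controls and was at least 5.17-fold higher in treated cells (adjusted p = 1.68e-18); a dimmer EGR3 probe differed by 0.50 and did not pass. FOS rose by 2.74 (adjusted p = 8.49e-09) and CSRNP1 by 2.36 (adjusted p = 2.52e-19). In the list of AP-1 and immediate early factors 15 of 27 rose and 3 fell, with a median of 0.93; the 3 were HES1, IER5 and MYC. Of 21 calcium and cAMP response genes 15 rose and 0 fell by limma (1 was lower at an unadjusted p under 0.05), with a median of 1.00. Over all features 2.09% rose and 1.41% fell.

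CGA, with its pair of CREs, had 8.16, 8.53, 8.65 and 9.31 in the treated 2 h arrays, against 4.85, 4.88, 5.17 and 5.22 in the 0 h controls and 4.81, 5.06 and 5.18 in the 1 h controls. It was detected on all 4 treated arrays and on 0 of 7 controls, and was at least 8.43-fold higher in treated cells (adjusted p = 2.45e-21). It was the 1 of 3 gonadotrope genes tested that rose. TAC1, the precursor of substance P, had 7.52, 8.15, 8.18 and 8.95 in the treated 2 h arrays, against 4.85, 4.94, 5.23 and 5.54 in the 0 h controls and 5.13, 5.15 and 5.41 in the 1 h controls. Its probe was detected on all 4 treated arrays, on 1 of 4 controls of 0 h and on 0 of 3 of 1 h, and it was at least 6.11-fold higher in treated cells (adjusted p = 4.64e-14). CXCL8 had 8.75, 9.41, 9.45 and 10.00 in the treated 2 h arrays, against 5.85, 5.90, 5.94 and 6.46 in the 0 h controls and 5.84, 5.85 and 6.00 in the 1 h controls, apart from every control, with a log2 difference of 3.44 ± 0.34 (adjusted p = 1.03e-10), a 10.8-fold rise. CCL2, an attractant of monocytes, rose by 2.28 (adjusted p = 2.99e-08). LBH, a transcription cofactor, rose by 2.72 (adjusted p = 3.13e-13). GEM, a small GTPase that restrains calcium channels, was detected on 0 of 7 controls and was at least 3.41-fold higher in treated cells (adjusted p = 1.01e-15). Of the 7 controls, PTGS2 and LBH were detected on 5 and NR4A2 and FOS on 4.

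Against treated 1 h, these rises were at different stages. FOS was lower at 2 h than at 1 h by 2.48 on the log2 scale (adjusted p = 5.57e-06), FOSB by 1.44 (adjusted p = 0.00649; lost in 1 of 18 alternative settings) and EGR3 by 1.13 (adjusted p = 0.000183). TAC1, ETV5, CXCL8, LBH and CGA were higher at 2 h than at 1 h by 2.28, 2.05, 1.86, 1.73 and 1.17 (adjusted p = 5.38e-08, 2.85e-09, 0.00277, 8.49e-06 and 0.000225). Of the 267 rises 42 were called higher and 11 lower than treated 1 h. At 8 h 201 of the 267 (75.3%) were called higher, or 14.1% of the 1429 rises of that time (11.2% of all features), and at 24 h 121 (45.3%), or 19.9% of 608 (4.75% of all features).

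**Figure D4:**
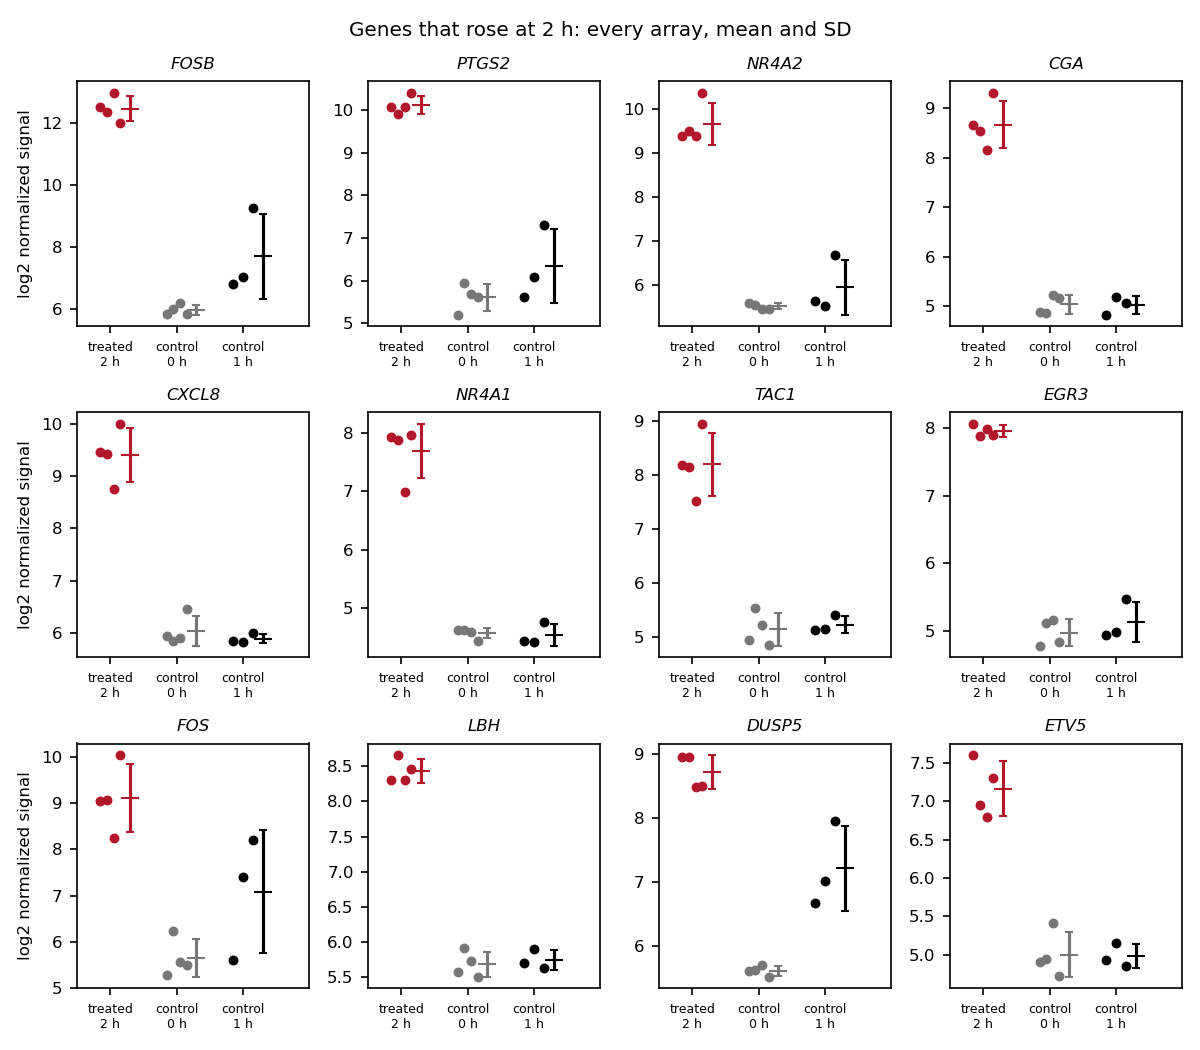
Level (log2 normalized signal, vertical axis, a separate scale for each gene) of 12 genes that rose at 2 h in every array of the treated 2 h group (red, n = 4), the 0 h controls (grey, n = 4) and the 1 h controls (black, n = 3); the cross-bar and whiskers are the mean and SD. All 4 treated arrays lie above all 7 controls in each panel, and FOSB, FOS and DUSP5 are spread or raised in the 1 h controls.

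In the list of MAP kinase feedback regulators, which also holds the factor ETV5, 11 of 16 rose and 0 fell by limma. At an unadjusted p under 0.05, 13 were higher and 0 lower, and the median was 0.96. The share that rose was 68.8%, against 2.09% of all features. DUSP5, a nuclear phosphatase of ERK, rose by 2.32 (adjusted p = 8.17e-11), but its 1 h controls were also 1.61 above its 0 h controls (adjusted p = 0.00282). Over the 1 h controls alone its difference was 1.52 (adjusted p = 0.000332). ETV5, an ETS factor, had 6.80, 6.95, 7.30 and 7.61 in the treated 2 h arrays, against 4.73, 4.91, 4.95 and 5.41 in the 0 h controls and 4.85, 4.94 and 5.15 in the 1 h controls and was at least 2.98-fold higher in treated cells, with 0 of 7 controls detected (adjusted p = 9.65e-13); a dimmer probe differed by 0.11 and did not pass. NAB2, a corepressor of the EGR factors, was detected on 0 of 7 controls and was at least 2.14-fold higher (adjusted p = 7.31e-10). IER3 rose by 2.17 (adjusted p = 1e-09). EGR1, an early growth response factor named here because the control times differ in it, had 1 h controls 2.63 above its 0 h controls (adjusted p = 0.0418) and did not pass at 2 h, at 1.38 ± 0.45 (adjusted p = 0.0758). Among targets of SRF and YAP 5 of 16 rose and 0 fell by limma (9 were higher and 0 lower at an unadjusted p under 0.05). CCN1, a matricellular protein, had 10.45, 10.77, 11.32 and 11.44 in the treated 2 h arrays, against 6.45, 7.19, 7.21 and 7.34 in the 0 h controls and 9.00, 9.51 and 10.60 in the 1 h controls. Its treated arrays overlapped the 1 h controls, and the log2 difference was 1.29 over the 1 h controls alone (adjusted p = 0.126) and 2.62 over the pool (adjusted p = 2.77e-07). FOSB, DUSP5, CCN1 and EGR1 were the 4 features called between the 1 h and 0 h controls (0.0313% of all).

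Further lists with rises and no call in the other direction were those of NF-kappaB, with 6 of 18 rising and a median of 0.44, of secreted factors and cytokines, with 7 of 17 and a median of 0.11, of mRNA decay and translation control, with 5 of 15 and a median of 0.41, and of ER stress and the amino acid response, with 6 of 28 and a median of 0.31. Over all features 2.09% rose, and the median was -0.03. RELB, a subunit of NF-kappaB, was detected on 3 of 4 treated arrays, on 1 of 4 controls of 0 h and on 0 of 3 of 1 h. It was at least 1.63-fold higher in treated cells (adjusted p = 2.29e-05). ZFP36, which binds AU-rich elements and speeds mRNA decay, rose by 1.56 (adjusted p = 2.95e-09). ZC3H12A, an endonuclease of mRNA, was detected on all 4 treated arrays, on 1 of 4 controls of 0 h and on 2 of 3 of 1 h. It was at least 1.78-fold higher in treated cells (adjusted p = 0.000135). DDIT3, the stress factor CHOP, rose by 2.11 (adjusted p = 0.000219) and DNAJB9, a chaperone of the endoplasmic reticulum, by 1.96 (adjusted p = 2.37e-07). HSPA5, the chaperone BiP, rose by 1.23 (adjusted p = 0.0263), with controls of 8.68, 8.87, 9.15 and 10.58 at 0 h that spread widely, and its call was lost in 10 of 28 alternative settings. Unadjusted p values under 0.05 with a fall numbered 0 in the NF-kappaB and mRNA decay lists and 1 each in the lists of secreted factors and of ER stress.

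Genes of growth arrest and cell death were split. Over all features 1.41% fell and 2.09% rose, so that a single call in a list of this size is near that share. Of 24 growth arrest genes 5 rose and 1 fell, with a median of 0.01. The fall was CDKN1B, and the largest rises were GADD45B at 1.44 and GADD45A at 1.40 (adjusted p = 1.36e-06 and 2.73e-10), which act in stress-induced arrest. Of 25 pro-apoptotic genes 3 rose, PMAIP1 (Noxa) at 1.58, TNFRSF10A at 0.77 and CASP9 at 0.68 (adjusted p = 4.35e-06, 0.0329 and 0.0219), and BMF fell. The TNFRSF10A call was lost in 14 of 28 alternative settings, that of CASP9 in 8 and that of BMF in 7, while that of PMAIP1 was kept in all 28. In the anti-apoptotic list 2 of 12 genes rose and 0 fell by limma (3 lower at an unadjusted p under 0.05). They were TNFRSF12A, whose place in that list was a choice made here, at 1.98 and MCL1 at 1.26 (adjusted p = 4.34e-12 and 2.38e-07). Of 19 p53 targets GADD45A and PMAIP1 rose and SESN1 fell.

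Other lists had few calls. Among them the share that rose was highest for cholesterol synthesis (13.3%, from 2 calls) and interferon (7.69%, from 1 call). Over all features 1.41% fell and 2.09% rose. Of 34 G2/M genes 1 fell, the mitotic kinesin KIF20A at -0.49 (adjusted p = 0.0237), and 0 rose by limma. At an unadjusted p under 0.05, 9 of the 34 were lower and 0 higher, against 1079 and 782 of all 12793 features. Their median was -0.20, against -0.03 over all features. Of 34 G1/S genes 1 rose, RRM2, a subunit of ribonucleotide reductase, at 0.46 (adjusted p = 0.0132). The cholesterol synthesis list had 2 rises of 15, IDI1 at 1.09 and SC5D at 0.51. The interferon list had 1 of 13, ISG15 at 1.43 (adjusted p = 5.17e-06), the ribosome biogenesis list 1 of 21, POLR1C at 0.42, the hypoxia list 1 of 29, ANKRD37 at 0.87, and the list of GnRH receptor signalling machinery 1 of 32, the kinase MAPK8 at 0.47 (adjusted p = 0.0181). The calls of KIF20A, RRM2, SC5D, POLR1C, ANKRD37 and MAPK8 were lost in 5 to 8 of 28 alternative settings. None of these last 6 lists had a fall by limma, and 0 to 3 members of each were lower at an unadjusted p under 0.05. Of 14 heat shock genes 0 passed by limma in either direction (1 lower at an unadjusted p under 0.05). Of the cell type markers tested, 6 epithelial, 2 fibroblast, 2 blood cell and 7 HEK293 genes, 0 passed by limma, and 0 had an unadjusted p under 0.05. Genes named ZNF followed by a number were close to the background, with 4 falls (1.28%) and 7 rises (2.24%) among 312.

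**Figure D5:**
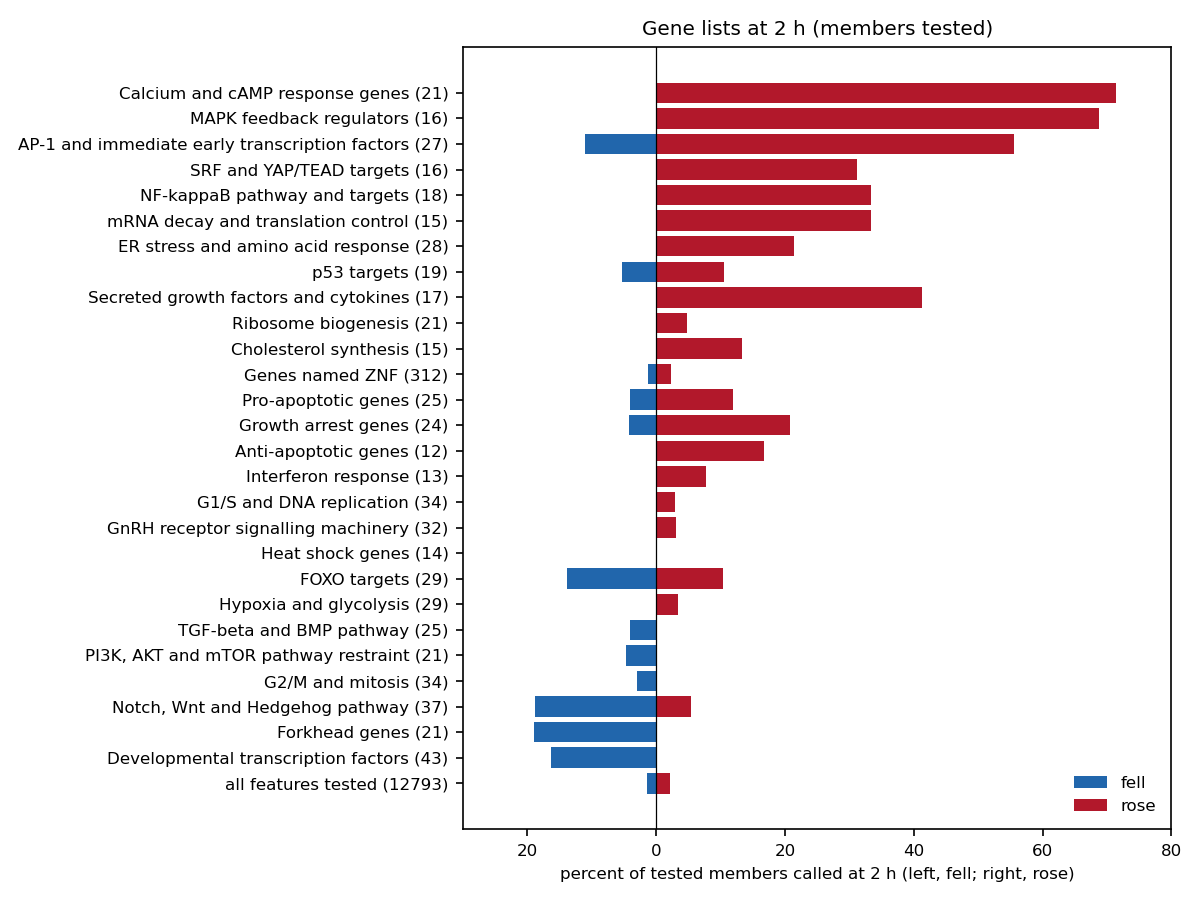
Share of the tested members of each gene list (number tested in brackets) that fell (bars to the left, blue) or rose (bars to the right, red) at 2 h, in percent, for lists with 10 or more members tested, ordered by their median log2 difference, with all 12793 features at the bottom. Of the lists shown, falls are most frequent in the forkhead, Notch, Wnt and Hedgehog, and developmental lists (19%, 18.9% and 16.3%), and rises in the calcium and cAMP response and MAPK feedback lists (71.4% and 68.8%).

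The promoters of the genes that fell and of those that rose were searched on both strands of the window from 250 bases before to 50 after the start, for 135 of 164 falling genes, 197 of 237 rising genes and 8634 of 10467 tested genes with an entry. The CRE TGACGTCA was found in 1.48% of the falling, 7.61% of the rising and 3.57% of all promoters. The AP-1 site TGANTCA was found in 2.22%, 6.60% and 4.19%, in the same order of sets, and the serum response element (CArG box) in 1.48%, 4.06% and 1.07%. The TATAAA box was found in 8.89%, 16.2% and 5.63%. The EGR site GCGGGGGCG was found in 11.9%, 10.7% and 8.45%, the ETS site CCGGAAGT in 2.96%, 9.64% and 9.24%, the forkhead site TGTTTAC in 1.48%, 3.55% and 2.15%, and the RBPJ site GTGGGAA in 3.70%, 4.06% and 5.50%. Most of these shares rest on few of the 135 falling promoters: 2 held a CRE, 3 an AP-1 site, 2 a CArG box and 4 an ETS site. A forkhead site was found in 2 and an RBPJ site in 5, while 16 held an EGR site and 12 a TATA box. With such counts the shares of forkhead, RBPJ and CArG sites cannot be set apart from those of all promoters. The forkhead site of DEPP1 was 1 of the 2 and the RBPJ site of HES1 1 of the 5. The median length of the gene in RefSeq was 30.3 kb for the falling, 18 kb for the rising and 29.9 kb for all tested genes. These shares and lengths are descriptions with no test.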

How the data were processed

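The authors deposited a table of non-normalized signal intensity with a detection p-value for each probe and array, and a table of normalized values. The array is Illumina HumanHT-12 and RNA was labelled with biotin, per the labels. The steps that made the deposited normalized values are not given in the sources used here. Their log2 was taken here, and they served as an alternative only. From the intensity, background was corrected by normexp from the detection p-values with an offset of 16, arrays were quantile normalized and log2 was taken (limma 3.58.1, R 4.3.3). Probes with a detection p under 0.01 on 3 or more arrays were kept (16016), and for each gene the probe with the highest mean; other probes of a gene are given where they disagree. Symbols come from the platform annotation, updated through gene IDs for 28059 probes.

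1 mean for each group was fitted to all 55 arrays with limma and tested two-sided by empirical Bayes with an intensity trend, with Benjamini-Hochberg adjustment over all 12793 features. Standard errors are from this fit. On simulated data for the 2 h comparison, 97 of 100 genes with a log2 change of 1 and 100 of 100 with a change of 2 were recovered among 12793 features, with 11 false calls. The simulated noise was independent between arrays, with no batch or replicate structure, and changes under 1 were not simulated. The figures therefore do not give the recovery or false calls for the real arrays, where most falls were smaller than 1. Where 1 or more arrays of the dimmer side did not detect a feature, its fold is only a bound, given as "at least". The bound sets the brighter mean over the dimmer mean. For it, each undetected array takes the higher of its lowest detected signal and the probe's own signal. The log2 differences are not bounded in this way and include undetected arrays.

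Named genes are the 20 largest falls and 15 largest rises among called genes whose groups did not overlap and that were detected throughout 1 side, and up to 4 called members in each direction of each list. The comparison, the gene lists and this rule were chosen with earlier results of these data known. Alternatives were other controls, background corrections, normalizations, filters, blocks for batch, chip and replicate number, and leaving out each array; leaving out arrays of groups other than the 3 compared was added after seeing the data. Figures used Python 3.11.15 and matplotlib 3.10.9.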

Additional observations from a re-analysis of the deposited data

Results flagged for a closer look

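In 14 of 204 groups of 4 arrays tested, over the named genes, 1 array stood apart by Dixon's test at the 95% level; chance gives about 1 in 20 groups. In the treated 2 h arrays these were CEBPA (7.02 on replicate 1, next 6.34), ZNF285 (6.06 on replicate 1, next 6.16), FOXD1 (8.65 on replicate 1, next 8.84), TNFRSF10A (7.21 on replicate 2, next 8.03), NR4A1 (6.99 on replicate 2, next 7.88) and NR4A2 (10.37 on replicate 1, next 9.50), all levels as log2 normalized signal. In the 0 h controls they were FOXD2 (8.15 on replicate 2, next 8.44), ANKRD37 (6.51 on replicate 3, next 6.18), KLF10 (6.01 on replicate 4, next 5.70), PMAIP1 (9.75 on replicate 3, next 9.47), CCN2 (7.76 on replicate 2, next 6.64), CSRNP1 (7.29 on replicate 4, next 7.45), CCN1 (6.45 on replicate 1, next 7.19) and CXCL8 (6.46 on replicate 1, next 5.94). Treated replicates 1 and 2 and all 4 control replicates appear among them.

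The effect at 8 h differed from the effect at 2 h (limma, log2 effect at 8 h minus effect at 2 h) for 24 of the named genes. Of those that fell at 2 h the difference was CEBPA (1.05, adjusted p = 0.0254), FZD4 (-1.26, adjusted p = 0.00013) and IER5 (0.58, adjusted p = 0.0383). Of those that rose it was positive for CASP9 (1.08, adjusted p = 0.0107), CPEB2 (1.64, adjusted p = 2.71e-05), DKK1 (2.20, adjusted p = 1.13e-10), HSPA5 (1.81, adjusted p = 0.0237), GADD45B (1.20, adjusted p = 0.0116), ZFP36 (0.85, adjusted p = 0.0427), THBS1 (0.70, adjusted p = 0.0407), TNFRSF12A (1.28, adjusted p = 0.00146), ETV5 (1.39, adjusted p = 0.000894), GEM (1.31, adjusted p = 0.000942), LBH (2.54, adjusted p = 5.07e-07), TAC1 (3.45, adjusted p = 8.06e-10) and CGA (2.61, adjusted p = 1.46e-09), and negative for KLF9 (-0.78, adjusted p = 0.0387), DNAJB9 (-1.30, adjusted p = 0.0367), DDIT3 (-2.14, adjusted p = 0.0193), EGR3 (-1.49, adjusted p = 0.000112) and FOSB (-3.02, adjusted p = 1.34e-06). Of the markers not called at 2 h it passed for the HEK293 line markers NEFM (2.10, adjusted p = 6.45e-06) and INA (1.41, adjusted p = 7.24e-06) and for the blood cell marker CD68 (0.76, adjusted p = 0.0249). The calls of CEBPA, IER5, CD68, KLF9, HSPA5, ZFP36, THBS1, DNAJB9 and DDIT3 were lost in 2 to 14 of 29 alternative settings. All arrays of 1 or both control groups of the 2 h effect were undetected for DKK1, THBS1, ETV5, GEM, TAC1, CGA and EGR3. The 2 effects use different control arrays.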

How the results depend on the processing

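The direction of all 180 falls and 267 rises held in each alternative that tested them, while the number called did not. The alternatives use mostly the arrays on which these features were called, so the kept direction is no separate support. Against the 1 h controls alone 190 features were called, 55 lower and 135 higher, and 76 calls fell on list members; against the 0 h controls alone the calls were 274, with 79 lower. Without a filter on dim probes 87 falls were called, 85 of them among the 180, and the effect at 8 h differed from that at 2 h in 418 features; more features are tested then. With the labelling batch as a block 707 features were called at 2 h, 336 lower, with 300 for treated 2 h against 1 h, 1207 for the change of effect between 2 h and 8 h and 25 for the 8 h controls against the pooled controls. That last count was 3 with cyclic loess, 2 with all probes and 3 with the chip as a block, and the 1 h controls against 0 h gave 2 without background correction and 1 with only the 11 arrays. Leaving out 1 array at a time gave 285 to 477 calls at 2 h, 74 to 205 lower and 170 to 272 higher, 78 to 124 for treated 2 h against 1 h, 427 to 754 for the change of effect, 0 to 4 for the 8 h controls and 0 to 5 for the 1 h controls. Changes of sign were found in 4 cell type markers that were not called: CD68 (-0.196 to 0.081 with 1 array left out and 0.300 within hybridisation batch 2), PDGFRA (-0.128 to 0.011 with 1 array left out, 0.089 with the controls of 1 h and 8 h averaged and 0.040 within batch 1), CD14 (-0.089 within batch 1) and NEFM (0.047 within batch 2). The causes were not tested. Of the single-gene values 5199 kept their direction and side of the threshold, 398 kept the direction only and 7 changed sign.

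The main fit did not take the replicate numbers as pairs. Deviations of same-numbered arrays correlated at -0.08 to 0.75 (median 0.42), with 2 of 10 pairs under 0.1. Those of differently numbered arrays correlated at -0.57 to 0.33 (median -0.16), and arrays correlated best with their own number in 13 of 20 cases. Same-numbered arrays were thus more alike at the median, and the main fit leaves this out. With the replicate number as a block 900 features were called, 437 lower and 463 higher, with all 180 falls and 267 rises among them, 187 calls of list members, 545 for treated 2 h against 1 h, 2303 at 24 h, 1564 for the change of effect and 70 for the 8 h controls.

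The number of arrays limits the precision. A fall cannot be followed below background, where RUNX1T1, DEPP1, SP8, DCP1B and MAN1C1 were undetected on 2 or more treated arrays.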

Other observations

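Beyond the lists, 4 further genes of mitosis and DNA replication were among the falls and were chosen after their values were seen. GTSE1, a microtubule-binding protein of G2, fell by 0.48 on the log2 scale (limma adjusted p = 0.00904), HJURP, the chaperone of the centromeric histone, by 0.46 (adjusted p = 0.00912), CKAP2L, a spindle protein, by 0.37 (adjusted p = 0.013) and PIF1, a DNA helicase, by 0.68 (adjusted p = 0.00911). In all 4 the treated 2 h arrays lay below all 7 controls. At 8 h GTSE1 and HJURP stood at -0.06 and 0.04 and did not pass. The LIM-homeobox genes ISL1 and ISL2 moved in opposite directions, by -0.58 and 0.59 (adjusted p = 0.00118 and 0.023), with overlap between groups in both.

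Of the 180 falls 3 were called higher at 8 h against the 8 h controls. EPAS1, a hypoxia-inducible factor subunit, stood at -0.55 at 2 h and 0.57 at 8 h, ESRRB, an orphan nuclear receptor, at -0.57 and 0.48, and MED15, a Mediator subunit, at -0.74 and 0.61 (adjusted p of the difference = 0.0022, 0.00418 and 0.00373). All 3 were dim: they were detected on 2, 3 and 1 of the 4 treated 2 h arrays. In the other direction NFKBIA, the inhibitor of NF-kappaB, stood at 0.96 at 2 h (adjusted p = 0.00182) and -0.64 at 8 h (adjusted p = 0.0359), and the difference passed (adjusted p = 0.000464).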
